A study of Mus musculus with 6 samples.

Results

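Hcn2, Hcn3, Hcn4, Kcnq3 and Kcnq5 encode subunits of ion channels that act near the resting potential of neurons. These 5 genes were taken by name from the 32531 gene symbols in the count files, with earlier results of these data known. All 5 had enough reads to be tested. The samples came from the cerebral cortex of adult, untreated Htr4-EGFP/Rpl10a (ES1299) mice, in which the ribosomal protein Rpl10a carries EGFP and is made where the Htr4 promoter of the transgene is active. Tagged ribosomes were pulled down with antibodies against EGFP, and the RNA bound to them is called IP here (n = 3 libraries). The comparison group is input RNA from cortex of the same line (n = 3 libraries), and every library therefore comes from mice that carry the tag. The tag follows the promoter and not a named cell type, and the series names pyramidal neurons as its subject. Other genes of the HCN and KCNQ families are not analysed here, so a family below means these members only.

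HCN channels open when the membrane is hyperpolarised and pass a mixed sodium and potassium current called Ih, which cyclic AMP enhances in some of its subunits. KCNQ channels open slowly near threshold and pass a potassium current called the M-current, which closes when receptors coupled to Gq lower the membrane lipid PIP2. In cortical pyramidal neurons both currents set how strongly the dendrites and the axon initial segment respond to small inputs. HCN2 is a subunit with a moderate response to cyclic AMP, HCN3 responds little to it, and HCN4 is the slow, strongly cyclic AMP dependent subunit known from the sinoatrial node and thalamus. KCNQ3 is a partner subunit of the neuronal M-channel, and KCNQ5 forms M-channels alone or with KCNQ3.

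The coding bases of the HCN genes around the selectivity filter show how much these members have in common, since the files list reads that align to several places in a row of their own and not under a gene. The sequences are from GENCODE M21 transcripts (GRCm38), 5′ to 3′ on the coding strand, and the capitals mark the 9 bases that encode the glycine, tyrosine and glycine signature of the filter.
Hcn2: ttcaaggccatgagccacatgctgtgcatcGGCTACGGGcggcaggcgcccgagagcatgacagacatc
Hcn3: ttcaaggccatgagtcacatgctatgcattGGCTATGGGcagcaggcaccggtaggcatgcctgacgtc
Hcn4: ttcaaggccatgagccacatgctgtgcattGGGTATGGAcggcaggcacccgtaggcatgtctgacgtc
Over these 69 bases Hcn3 and Hcn4 had 62 in common, Hcn2 and Hcn4 had 58, and Hcn2 and Hcn3 had 56. Even so, Hcn2 and Hcn4 had 0 stretches of 50 bases in common with annotated transcripts of any other gene. Hcn3 had 662 of 4184 such stretches in common with Pklr, and Kcnq5 had 139 of 7827 in common with Gm26580. For Kcnq3, 13 of 14656 also stood in transcripts of other genes. Only exact matches were sought and the rest of the genome was not searched, so where reads were placed was not tested.

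The genes lie on 5 chromosomes (GRCm38). Hcn2 lies on the plus strand of chromosome 10 from 79716634 to 79736108, Hcn4 on the plus strand of chromosome 9 from 58823412 to 58863175, and Hcn3 on the minus strand of chromosome 3 from 89146074 to 89160196. Kcnq3 lies on the minus strand of chromosome 15 from 65986387 to 66286642, and Kcnq5 on the minus strand of chromosome 1 from 21398403 to 21961942. Of the 4154 exon bases of Hcn3, 711 (17.1%) overlap exons of Pklr, the pyruvate kinase gene of liver and red cells, on the opposite strand. The strand setting of the counting is not given in the sources used here, so reads from that stretch cannot be assigned with certainty. Pklr itself had 15, 4 and 103 reads in IP replicates 1 to 3, and 16, 10 and 18 reads in input replicates 1 to 3. Kcnq5 has 237 exon bases (3.08%) in common with Gm26580, a gene on the opposite strand. Hcn2, Hcn4 and Kcnq3 have 0 exon bases that overlap exons of another gene.

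Libraries held 53147173 to 67559533 reads on genes in IP and 37696125 to 52360452 in input. Htr4, whose promoter drives the tag, had 19.9 ± 2.36 CPM in IP and 7.88 ± 0.265 CPM in input (SD, n = 3 each), a log2 fold change of 1.34 (SE 0.16, adjusted p = 5.7e-05 by edgeR's quasi-likelihood test and Benjamini-Hochberg adjustment). CPM is the read count scaled to a common library size, here the total of reads on genes scaled by TMM, edgeR's trimmed mean of M-values. Of all 16506 tested genes 21.3% rose and 23.4% fell in IP. All 7 markers of cortical excitatory neurons were tested, 2 rose and 0 fell, with 3994 to 5544 summed CPM in IP and 3726 to 4268 in input. Of 8 oligodendrocyte markers all fell in IP, with 161 to 183 summed CPM in IP and 1377 to 1516 in input. All 6 astrocyte markers also fell, with 728 to 893 summed CPM in IP and 3614 to 4260 in input. All 5 microglial markers fell too, with 1.51 to 2.96 summed CPM in IP and 37.9 to 43.6 in input. All 6 markers of layer 5 pyramidal tract neurons rose, with 577 to 631 summed CPM in IP and 255 to 285 in input. Of 4 markers of layer 4 neurons 3 fell and 0 rose, with 65.3 to 77.7 summed CPM in IP and 356 to 458 in input. Of 5 markers of layer 2/3 neurons 2 rose and 3 fell, with 316 to 404 summed CPM in IP and 357 to 393 in input. Of 7 GABAergic markers 3 rose and 0 fell, with 1169 to 1708 summed CPM in IP and 967 to 1090 in input. Those that rose were Vip (log2 fold change 3.34), Sst (1.49) and Slc32a1 (0.58). Of 6 thalamic markers, a tissue known for Hcn2 and Hcn4, 1 rose and 3 fell. Their summed CPM was 272 to 348 in IP and 369 to 421.5 in input. Slc17a6 rose, with 125 ± 22.6 CPM in IP and 34.3 ± 1.80 CPM in input. Gbx2 was at 0 in every library. Of 7 markers of striatal projection neurons 6 rose and 1 fell, with 771 to 1078 summed CPM in IP and 270 to 332 in input. The part of these cell types in the channel results was not tested.

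The comparison sets RNA of the channel genes on tagged ribosomes against their RNA in the cortex as a whole. The HCN genes had higher means in IP and the KCNQ genes lower ones, with differences of at most 1.47-fold. Of the 5 genes, 1 passed the test: Kcnq3 fell in IP. Among all 16506 tested genes 44.8% passed, 21.3% as higher (3523) and 23.4% as lower (3864), so 1 of 5 is no more than the table as a whole gives. With each library adjusted for exon length and GC content, over the 14955 genes that had both values, 4146 were called higher and 2621 lower, so both the adjustment and the set of genes differ from those above. In these bulk samples, fewer cells of a type and less RNA per cell cannot be told apart. A difference in how much of a gene's RNA is bound to ribosomes cannot be told apart from either.

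**Figure D1:**
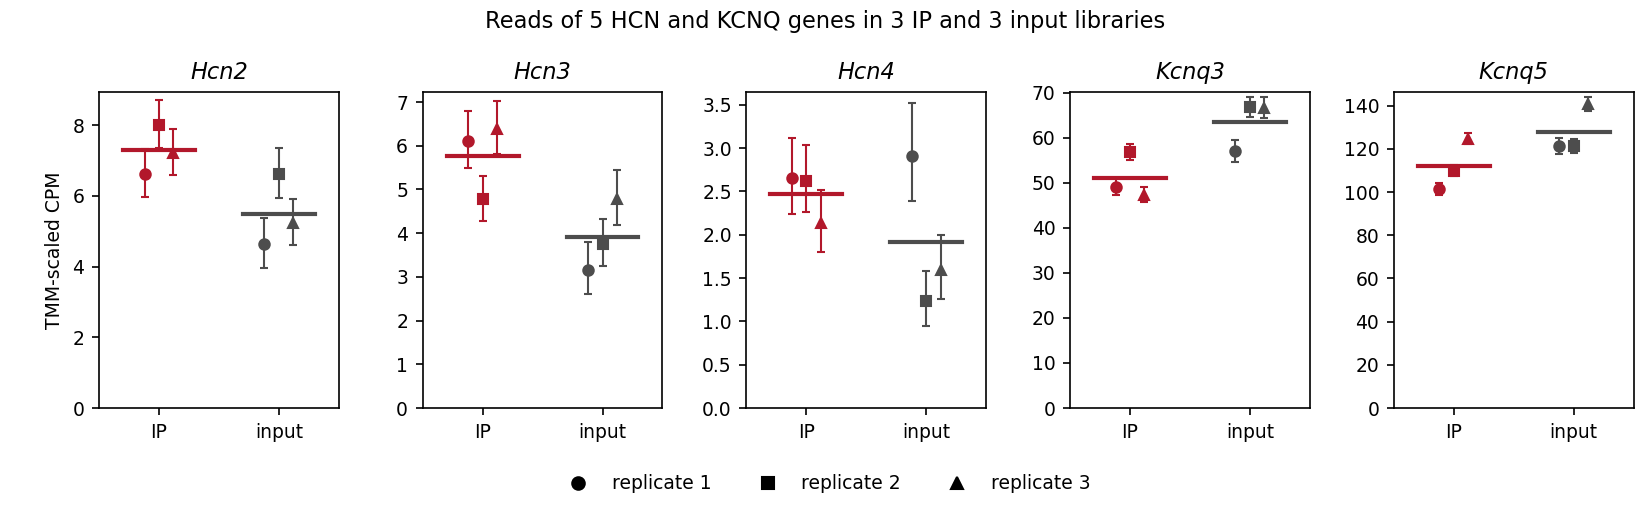
TMM-scaled CPM of each gene (vertical axis, from 0) in the IP and input libraries (horizontal axis). Points are libraries, bars their exact 95% Poisson counting intervals, and horizontal lines the group means. The KCNQ means are lower in IP and the HCN means higher, and the groups overlap for Hcn3, Hcn4 and Kcnq5.

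Hcn2 had 6.62, 8.01 and 7.22 CPM in IP replicates 1 to 3, and 4.63, 6.62 and 5.22 CPM in input replicates 1 to 3. The lowest IP library and the highest input library were equal to 3 digits, so the groups touched without crossing. These values rest on 369 to 559 reads per IP library and 170 to 333 per input library. The log2 fold change was 0.41 (SE 0.23, 95% interval -0.09 to 0.90, edgeR adjusted p = 0.167), and within lanes 1, 2 and 3 it was 0.52, 0.28 and 0.47. Hcn2 did not pass. Since the groups did not cross, each lane had to give the higher value to IP. IP libraries lay above all inputs at 26.5% of all tested genes.

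Hcn3 had 6.12, 4.77 and 6.39 CPM in IP replicates 1 to 3, and 3.16, 3.76 and 4.79 CPM in input replicates 1 to 3. IP replicate 2 lay just below input replicate 3, and the other IP libraries lay above all inputs. The log2 fold change was 0.56 (SE 0.27, 95% interval -0.02 to 1.14, edgeR adjusted p = 0.108), with 0.95, 0.35 and 0.41 within lanes 1 to 3. This was the highest fold change of the 5 genes, 1.47-fold, and it did not pass.

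Hcn4 was the least abundant member, with 146 to 183 reads per IP library and 62 to 107 per input library. It had 2.65, 2.62 and 2.14 CPM in IP replicates 1 to 3, and 2.91, 1.23 and 1.60 CPM in input replicates 1 to 3. Input replicate 1 was the highest of all 6 libraries, and its exact 95% counting interval of 2.39 to 3.52 CPM lay above that of input replicate 2, 0.945 to 1.58 CPM. The log2 fold change was 0.37 (SE 0.42, 95% interval -0.55 to 1.30, edgeR adjusted p = 0.505), and the lanes disagreed in sign, at -0.13, 1.09 and 0.42. Without input replicate 1 it was 0.83 (adjusted p = 0.183), without input replicate 2 it was 0.13 (adjusted p = 0.863), and without input replicate 3 it was 0.27 (adjusted p = 0.704). Hcn4 did not pass, with or without any 1 library.

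Kcnq3 had 49.1, 56.7 and 47.4 CPM in IP replicates 1 to 3, and 57.1, 66.7 and 66.7 CPM in input replicates 1 to 3. All IP libraries lay below all inputs, though IP replicate 2 and input replicate 1 differed by less than 1 CPM. The means were 51.1 ± 4.99 CPM in IP and 63.5 ± 5.56 CPM in input (SD, n = 3 each). The log2 fold change was -0.31 (SE 0.11, 95% interval -0.56 to -0.07, edgeR adjusted p = 0.0412), with -0.22, -0.23 and -0.49 within lanes 1 to 3. Groups that did not overlap were found at 56.1% of all tested genes, with IP above at 26.5% and IP below at 29.5%. The call was lost without IP replicate 1 (adjusted p = 0.104), IP replicate 3 (adjusted p = 0.124), input replicate 2 (adjusted p = 0.139) or input replicate 3 (adjusted p = 0.157), with fold changes of -0.28, -0.26, -0.29 and -0.26. It was also lost with total counts in place of TMM (-0.22, adjusted p = 0.143), and the sign turned when each library was adjusted for exon length and GC content (0.10, adjusted p = 0.472, where the median of all tested genes moved to 0.11).

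Kcnq5 was the member with most reads, 5655 to 8514 per IP library and 4455 to 6879 per input library. It had 101, 110 and 125 CPM in IP replicates 1 to 3, and 121, 121 and 141 CPM in input replicates 1 to 3. IP replicate 3 lay above the lower inputs, so the groups overlapped. The log2 fold change was -0.19 (SE 0.11, 95% interval -0.42 to 0.04, edgeR adjusted p = 0.165), with -0.26, -0.14 and -0.18 within lanes 1 to 3. Kcnq5 was lower in IP in every lane and did not pass. With the length and GC adjustment its sign also turned (0.02, adjusted p = 0.880). Relative to the median of all tested genes under that adjustment, it was at -0.084. With no filter and with DESeq2, which took in 22418 genes each, Kcnq5 was at 0.0010 and 0.0018 relative to their medians.

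**Figure D2:**
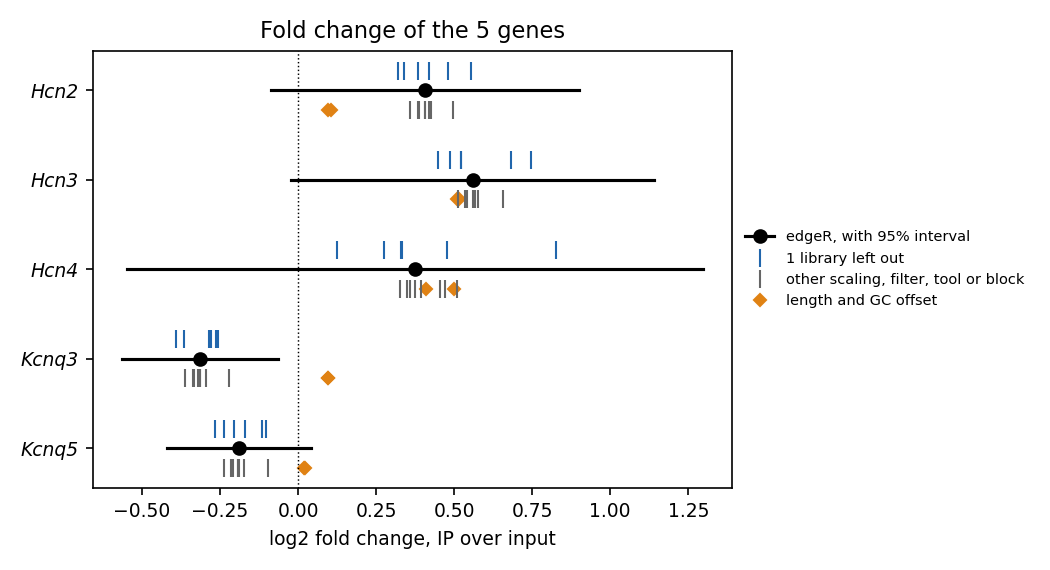
Log2 fold change of IP over input (horizontal axis) for each gene (rows). Black points are the edgeR estimates with 95% intervals, blue ticks leave out 1 library each, grey ticks are other scalings, filters, tools or the replicate block, and orange diamonds are the length and GC adjustment. Of the black intervals only that of Kcnq3 lies wholly on one side of 0, and its diamonds lie on the other side.

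Transcript length and GC content differed between the families. The longest transcripts of Hcn2, Hcn3 and Hcn4 have 3195, 4002 and 6118 bases with 65.4%, 58.0% and 58.0% G and C. Those of Kcnq3 and Kcnq5 have 11824 and 6975 bases with 44.4% and 47.7%. With the length and GC adjustment the log2 fold changes of Hcn2, Hcn3 and Hcn4 were 0.10, 0.51 and 0.41, and those of Hcn2 and Kcnq3 were then equal to 2 decimals. Relative to the median of all tested genes under that adjustment, Hcn2 was at -0.0087, Kcnq3 at -0.0093 and Kcnq5 at -0.084, while Hcn3 and Hcn4 were at 0.40 and 0.30. Hcn3 and Hcn4 kept a higher value than both KCNQ genes under it, and none of the 5 genes passed (adjusted p from 0.134 to 0.880).

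Summed over the family, the HCN genes varied little between libraries of a group. Hcn2, Hcn3 and Hcn4 together had 15.4, 15.4 and 15.7 CPM in IP replicates 1 to 3, and 10.7, 11.6 and 11.6 CPM in input replicates 1 to 3. Kcnq3 and Kcnq5 together had 151, 167 and 172 CPM in IP replicates 1 to 3, and 178, 188 and 207 CPM in input replicates 1 to 3. For each HCN read there were 9.78, 10.8 and 10.9 KCNQ reads in IP replicates 1 to 3, and 16.7, 16.2 and 17.9 in input replicates 1 to 3. The IP libraries lay apart from the inputs in this ratio, which does not depend on how libraries are scaled. Among single tested genes, 56.1% also had groups that did not overlap. Groups that lie apart give the same direction in every lane. Within lanes 1 to 3, IP had 0.587, 0.667 and 0.611 times the input ratio. These sums were formed after the values of the members had been seen and are given as a description, with no test. The difference in length and GC content described above moves with this ratio, and its part in it was not tested for the ratio itself.

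**Figure D3:**
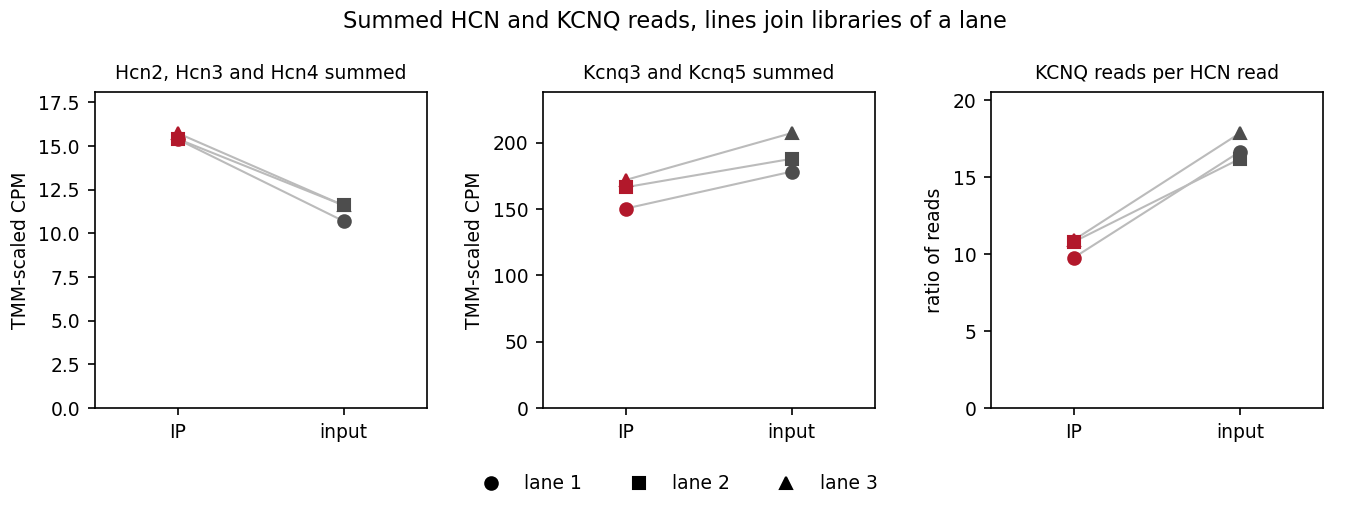
Summed TMM-scaled CPM of the HCN genes (left) and KCNQ genes (middle), and KCNQ reads per HCN read (right), in IP and input (horizontal axes), with all vertical axes from 0. Points are libraries, their shapes mark the sequencing lane, and grey lines join the libraries of a lane. The groups do not overlap in any panel, so in each lane the HCN sum is higher in IP, and the KCNQ sum and the ratio are lower.

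Within the families, the composition did not differ beyond the spread of the libraries. Hcn3 had 0.801 ± 0.179 reads per Hcn2 read in IP and 0.723 ± 0.178 in input (SD, n = 3 each). Hcn4 had 0.342 ± 0.0539 reads per Hcn2 read in IP and 0.374 ± 0.229 in input. Kcnq5 had 2.21 ± 0.370 reads per Kcnq3 read in IP and 2.02 ± 0.173 in input. The differences in log2 ratio were 0.15, 0.04 and 0.12, and the two-sided exact permutation p was 0.6, 0.9 and 0.6 (0.9 for each when adjusted over the 3 ratios). With 3 libraries against 3 the smallest p this test allows is 0.1. The groups overlapped for every ratio, and the within-lane differences had mixed signs, from -0.65 to 0.81 for Hcn4 to Hcn2.

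Levels of different genes were compared per kilobase of annotated exon (the union over transcripts), on the scale of TMM-scaled CPM per kilobase. Kcnq5 was the highest, with 14.6 ± 1.53 in IP and 16.6 ± 1.46 in input. Kcnq3 followed, with 3.47 ± 0.339 in IP and 4.32 ± 0.378 in input. Hcn2 had 2.28 ± 0.219 in IP and 1.72 ± 0.320 in input, Hcn3 had 1.39 ± 0.208 in IP and 0.939 ± 0.199 in input, and Hcn4 had 0.404 ± 0.0473 in IP and 0.313 ± 0.145 in input. The order of the 5 genes was therefore the same in IP and input. The ranges of neighbours in this order did not overlap in either group, and Kcnq3 was 1.52 times Hcn2 in IP and 2.51 times Hcn2 in input. The order was also the same with the longest transcript in place of the exon union and with total counts. The annotated exon length sets these values, and which transcripts the cortex uses was not measured here.

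**Figure D4:**
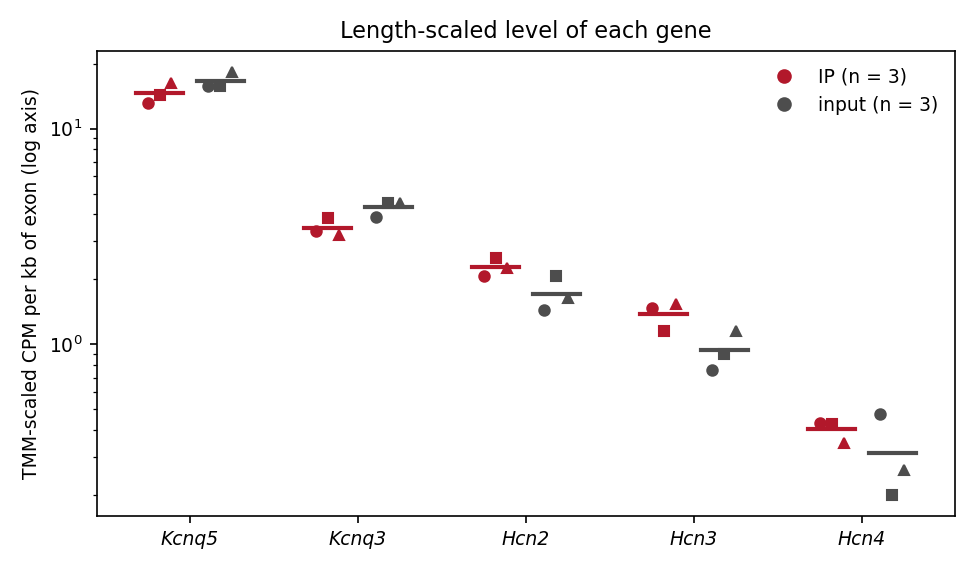
Level of each gene as TMM-scaled CPM per kilobase of exon union (vertical log axis), with genes from the highest to the lowest (horizontal axis). Points are libraries and lines are group means, IP in red and input in grey. Kcnq5 lies above the other genes and Hcn4 below them in both groups.

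The genes whose profile over the 6 libraries was most like that of a member were found by the root mean square difference of log2 CPM, each profile centred on its own mean, among 9677 genes of at least 5 mean CPM. For Kcnq3 these were Baz2a (0.026) and Pitpnc1 (0.031), and for Kcnq5 they were Apbb2 (0.027) and Synj2 (0.036). For Hcn2 they were Slc35e3 (0.062) and Ints5 (0.064), for Hcn3 Vwa5a (0.081) and Gapdh (0.082), and for Hcn4 Mtrf1l (0.14) and Cdpf1 (0.17). The likeness was closer for the KCNQ genes, which have more reads. Gapdh has many near-identical pseudogene copies, and its count is uncertain.

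Of 8 genes whose products bind HCN channels or move them to the membrane 7 were tested, 2 rose and 1 fell, where 44.8% of all tested genes passed, with a median log2 fold change of -0.0025 against -0.015 over all tested genes. That median lies so near 0 that its sign turned under several alternatives. Pex5l, which encodes TRIP8b, the auxiliary subunit that places HCN channels in distal dendrites, had 156 ± 9.68 CPM in IP and 146 ± 7.16 CPM in input (log2 fold change 0.10, edgeR adjusted p = 0.393), and it passed with the length and GC adjustment (0.34, adjusted p = 0.0052). Vapb and Vapa encode membrane proteins of the endoplasmic reticulum that bind HCN channels. Vapb rose to 227 ± 13.5 CPM in IP, against 133 ± 4.83 CPM in input, and Vapa to 199 ± 25.2 CPM in IP, against 124 ± 9.42 CPM in input (log2 fold changes 0.78 and 0.69). Flna, the actin cross-linker filamin A, fell to 0.973 ± 0.439 CPM in IP, against 8.95 ± 0.846 CPM in input (log2 fold change -3.20). Flna is also abundant in vascular cells, and all 4 tested endothelial and mural markers fell. The 5 listed markers had 0.762 to 1.38 summed CPM in IP and 5.56 to 9.64 in input. Tek had 0 reads in IP, and the groups overlapped for Pecam1. The part of vascular cells in the fall of Flna was not tested. Kctd3, Lrmp and Mrvi1 did not pass, and Kcne2 had 0 reads in IP and 9 in input, all in 1 library.

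Among genes whose products bind, anchor or modify KCNQ channels, 2 of 12 tested rose and 2 fell, where 44.8% of all tested genes passed. The median log2 fold change of the list was -0.19, against -0.015 over all tested genes. With the length and GC adjustment it was 0.056, but the median of all tested genes moved to 0.11. Relative to that median the list was at -0.049. With no filter and with DESeq2, which took in 22418 genes each, it was at 0.0029 and 0.0037 relative to their medians. The 2 that rose were Calm2 and Calm3, which encode calmodulin, a constitutive subunit of KCNQ channels. Calm2 had 6187 ± 687 CPM in IP and 2164 ± 179 CPM in input (log2 fold change 1.52), and Calm3 had 1651 ± 96.7 CPM in IP and 1011 ± 139 CPM in input (log2 fold change 0.71). Both have related copies in the genome, so their counts are uncertain where reads align to more than 1 place. Slc5a3, a myo-inositol transporter that associates with KCNQ channels, fell to 76.8 ± 4.86 CPM in IP, against 107 ± 12.8 CPM in input (log2 fold change -0.48, edgeR adjusted p = 0.0036), and this call ended with the length and GC adjustment (adjusted p = 0.246). Kcne4, an inhibitory accessory subunit, had 2 reads in all IP libraries and 59 in all inputs, so its share was 39.4 times higher in input (95% counting interval from 10.4 to 333). Ank3, the ankyrin that holds KCNQ channels at the axon initial segment, had 319 ± 6.66 CPM in IP and 378 ± 45.6 CPM in input (log2 fold change -0.24, adjusted p = 0.0593), and it turned to 0.57 with the length and GC adjustment (adjusted p = 7e-05). A block on the replicate number gave 4 lower calls in this list, since Ank3 (adjusted p = 0.034) and the syntaxin gene Stx1a (adjusted p = 0.014) then passed. Stx1a also passed as lower after the length and GC adjustment (-0.64, adjusted p = 0.0027), against -0.38 (adjusted p = 0.0539) in the main fit. Under that adjustment the list still had 2 lower calls. Akap5, the kinase anchor of the M-channel, had 447 ± 77.5 CPM in IP and 467 ± 18.3 CPM in input (adjusted p = 0.683), and Nedd4l, a ubiquitin ligase that removes KCNQ channels, had 412 ± 67.9 CPM in IP and 414 ± 41.7 CPM in input (log2 fold change -0.0063, adjusted p = 0.972), and it passed as higher after the length and GC adjustment (0.47, adjusted p = 0.0025).

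**Figure D5:**
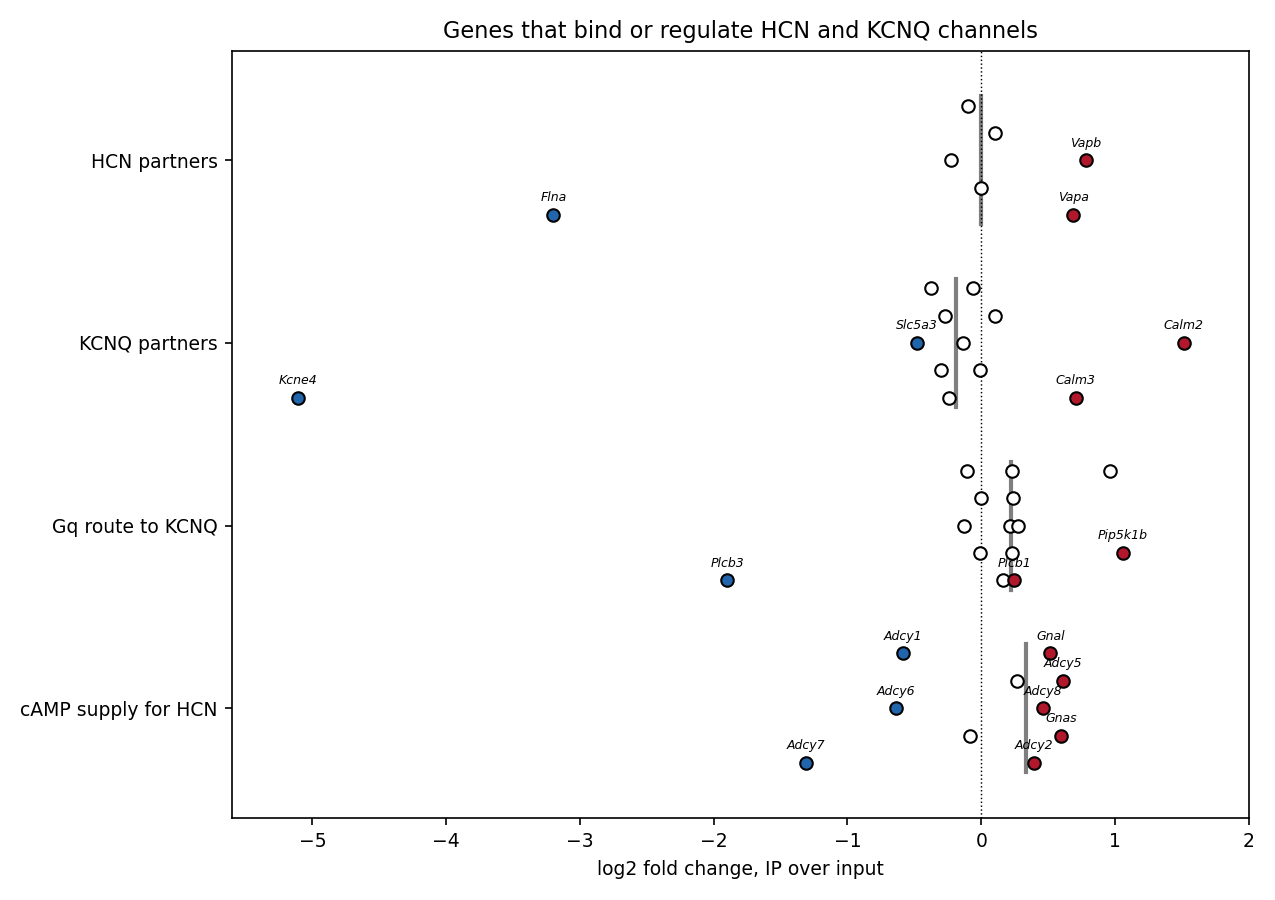
Log2 fold change of IP over input (horizontal axis) for the tested genes of 4 lists (rows): genes that bind HCN channels, genes that bind KCNQ channels, the Gq route that closes KCNQ channels, and the supply of cyclic AMP. Filled points passed the test (red higher and blue lower in IP) and are named, open points did not, and vertical bars are list medians. Most points of the first 3 lists are open, and 8 of 10 are filled in the cyclic AMP list. Among all tested genes 44.8% passed.

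Of 14 genes on the route from Gq-coupled receptors to the M-current, 2 rose and 1 fell, where 44.8% of all tested genes passed. Their median log2 fold change was 0.22, against -0.015 over all tested genes. Chrm1, the muscarinic receptor that closes M-channels in pyramidal neurons, had 115 ± 11.8 CPM in IP and 97.6 ± 4.78 CPM in input (log2 fold change 0.23, edgeR adjusted p = 0.0812), and it passed when total counts (0.32, adjusted p = 0.022) or the length and GC adjustment (0.37, adjusted p = 0.0052) were used. Plcb1, the phospholipase that cleaves PIP2 downstream of Gq, rose to 477 ± 21.0 CPM in IP, against 403 ± 31.3 CPM in input (log2 fold change 0.25, adjusted p = 0.0351). Its call ended when IP replicate 1 (adjusted p = 0.071), IP replicate 3 (0.067), input replicate 1 (0.070) or input replicate 2 (0.171) was left out, and also with RLE size factors (0.053) and the filter of 1 CPM (0.075). Pip5k1b, a kinase that makes PIP2, rose to 34.0 ± 7.69 CPM in IP, against 16.4 ± 2.28 CPM in input (log2 fold change 1.06, adjusted p = 0.00066). Plcb3 fell to 0.676 ± 0.0849 CPM in IP, against 2.52 ± 0.285 CPM in input. With the replicate block 4 genes were called higher, since Gna11 (adjusted p = 0.042) and Pip5k1c (adjusted p = 0.042) then passed.

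Of 10 genes that make cyclic AMP, the ligand of HCN channels, 5 rose and 3 fell. Among all tested genes 21.3% rose and 23.4% fell. The median log2 fold change of the 10 genes was 0.33, against -0.015 over all tested genes. Gnas, which encodes the stimulatory G protein subunit, rose to 1574 ± 54.4 CPM in IP, against 1041 ± 76.1 CPM in input (log2 fold change 0.60). Gnas lies in a complex locus with an antisense transcript, and reads of the antisense partner cannot be told apart from those of Gnas here. Gnal, which encodes the related olfactory type subunit, rose with a log2 fold change of 0.52. Among the adenylyl cyclases, Adcy5 (0.61), Adcy8 (0.46) and Adcy2 (0.40) rose, and Adcy1 (-0.58), Adcy6 (-0.64) and Adcy7 (-1.31) fell. Adcy1 was the most abundant of them by reads, with 490 ± 85.9 CPM in IP and 734 ± 90.7 CPM in input. The call of Adcy2 ended when IP replicate 3 (adjusted p = 0.176) or any 1 input (adjusted p = 0.123, 0.112 and 0.067 for replicates 1 to 3) was left out, and also with RLE size factors (0.054), the filter of 1 CPM (0.064) and limma-voom (0.0503). That of Adcy7 ended when IP replicate 3 (adjusted p = 0.056) or any 1 input (0.130, 0.071 and 0.051) was left out, and that of Adcy8 when input replicate 2 was (adjusted p = 0.065). Adcy5 and Gnal are also abundant in striatal projection neurons, of whose 7 markers 6 rose and 1, Rgs9, fell (log2 fold change -1.43), and their part in these changes was not tested.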

How the data were processed

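The submitters' processing notes name STAR 2.0.0e, HTSeq and mm10. Annotation, strand setting and HTSeq version were not given in the sources used. The authors deposited raw counts per gene symbol, not normalized. Rows that name no gene held 43.7% to 46.3% of listed reads in IP and 47.6% to 49.5% in input and were left out. Their make-up differed between the groups. Ambiguous reads were 1.77% to 1.91% in IP and 8.12% to 9.83% in input. Reads on no feature were 8.60% to 8.92% in IP and 16.7% to 18.1% in input. Reads that align to several places were 32.9% to 35.7% in IP and 21.1% to 23.3% in input. The part of these differences in the fold changes was not tested. Counts were tested with edgeR 4.0.16 (R 4.3.3): TMM scaling, filterByExpr, quasi-likelihood test of group, two-sided, Benjamini-Hochberg adjusted p under 0.05 over all 16506 tested genes. SEs and 95% intervals come from the test statistic. The fit was run on simulated counts with known changes. Alternatives were total counts, RLE size factors, TMM with 83 ribosomal protein genes left out, other filters, DESeq2 1.42.0, limma-voom (limma 3.58.1), a replicate block, a robust length and GC offset (90.6% of tested genes had values), and leaving out each library. Coordinates, lengths and sequences are from GENCODE M21 (GRCm38).

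A count of 3 reads corresponds to 0.0444 to 0.0564 CPM in IP and 0.0573 to 0.0796 CPM in input. Such floors and intervals cover counting error alone, because amplified reads are not independent molecules. The labels do not state that replicates were separate animals, so p-values reflect only how these libraries vary, and that variation may be technical. In the labels each replicate number goes with 1 sequencing lane. Across genes, deviations from the group means correlated at 0.087, 0.061 and 0.043 between IP and input of the same lane, and at -0.057 to 0.0014 otherwise. The IP libraries share an index sequence and the inputs share another, and this difference cannot be told apart from that of the groups. Libraries of a group differed beyond sampling noise (chi-square per degree of freedom from 22.0 to 65.2). The members, gene lists and tests were chosen with earlier results of these data known. The named genes are the 5 members, genes of the pathway and marker lists, Htr4, and the 2 genes most like each member in profile. Pklr and Gm26580 were named for their overlap, after annotation was read. Of the list of KCNQ binding genes, 1 gene is not reported here and was left out of that list's counts and median.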

Additional observations from a re-analysis of the deposited data

How the results depend on the processing

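Hcn2, Hcn3 and Hcn4 kept their sign and did not pass under all 16 alternatives, with log2 fold changes of 0.10 to 0.55, 0.45 to 0.75 and 0.13 to 0.83. Kcnq3 passed under 8 of the 16. It did not with total counts (-0.22), without a filter (-0.30, adjusted p = 0.055) or with the length and GC offset, where it was 0.096, and 0.094 with the replicate block as well. Leaving out 1 library gave -0.39 to -0.26. Kcnq5 was 0.021 with the offset, and 0.018 with the block as well. Members called numbered 0 with total counts, no filter and both offset fits, and 0 to 1 when 1 library was left out. The replicate block changed no call of a member. The cause of these changes was not tested. With the length and GC offset the median of all tested genes was 0.11, and Kcnq3 was -0.0093 relative to it.

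Genes called ran from 5838 to 8298 of the tested genes. Of the KCNQ binding list, 4 were called higher under both offset fits, and 5 were called lower with RLE and DESeq2 and 4 with limma-voom, the 1 CPM filter and the replicate block (2 to 4 with 1 library left out). Of the Gq list, 1 was called higher with RLE and with the 1 CPM filter, 4 with the block, and 6 with total counts and both offset fits (1 to 5 with 1 library left out, and 1 to 2 lower). Of the cyclic AMP list, 3 to 5 were called higher with 1 library left out. The median of the HCN binding list lies near 0 and turned to 0.087 with total counts and to 0.089 and 0.092 with the offsets, with -0.083 to 0.15 when 1 library was left out. The median of all tested genes was 0.078 with total counts and 0.11 and 0.090 with the offsets. The median of the KCNQ binding list turned to 0.056 and 0.050 with the offsets. Relative to all tested genes it was then -0.049 and -0.040. Leaving out 1 library gave -0.0084 to 0.35 for Hcn3 to Hcn2, -0.37 to 0.51 for Hcn4 to Hcn2 and -0.0094 to 0.21 for Kcnq5 to Kcnq3, and within lanes the mean differences were 0.15, 0.04 and 0.12, as without the block. Hcn4 had the fewest reads of the members, 62 in input replicate 2, and its inputs also differed beyond counting error.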
